A study of Mus musculus with 4 samples.

Results

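The genes described here are 10 members of the NF-kB system, 5 subunits (Nfkb1, Nfkb2, Rela, Relb and Rel) and 5 regulators that NF-kB itself induces (Nfkbia, Nfkbiz, Tnfaip3, Tnip1 and Birc3). Their open chromatin was read from ATAC-seq of sorted mouse keratinocytes. Peaks of 4 libraries were merged wherever they overlapped by at least 1 bp, and a region was kept when it overlapped the body of 1 of the 10 genes or the 25 kb on either side. This gave 101 of the 82641 regions in the whole set. The genes were listed by name and not by a cutoff on any value measured here, though earlier results of these data were known. WT and Mapk8-KO cells were compared, 2 libraries each, to ask where accessibility differs when the kinase JNK1, encoded by Mapk8, is missing.

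All 4 libraries came from female mice on a C57BL/6 background, 8 to 12 weeks old, whose skin was treated with a cream of 5% imiquimod for 8 days and taken 4 h after the last dose. The inflamed state is therefore shared by both genotypes. Per the study's methods, the Mapk8-KO mice carried Mapk8 fl/fl and a Cre driven by the KRT14 promoter, which is active in basal cells of the epidermis and other stratified epithelia. Littermates served as controls, and the labels call them Wild Type without saying whether they carried the floxed allele. Cells were sorted as EpCam+ with high CD49f. The study calls the 2 samples of a group independent, and the labels do not name the mice, so the spread is that between these libraries.

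NF-kB is a family of dimers that wait in the cytoplasm bound to inhibitors until signals from cytokine or Toll-like receptors trigger their release. Rela, Relb and Rel carry transactivation domains, while the products of Nfkb1 and Nfkb2 are precursors that are cut to p50 and p52. The response is short because NF-kB switches on its own brakes, among them the inhibitor IkB-alpha (Nfkbia) and the ubiquitin-editing enzyme A20 (Tnfaip3). In the epidermis this circuit responds to the cytokines of psoriatic skin, which imiquimod treatment of mice is used to model.

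The promoters of 5 members held the kB motif, the 10-base consensus bound by NF-kB dimers, and are shown because they locate that motif beside the open regions described further on. The Tnip1 start shown was called in Mapk8-KO 1 only, and the open promoter of that gene lies elsewhere. These sequences are from RefSeq on GRCm38, the assembly that mm10 denotes, and run from 250 bases before the transcription start to 50 bases after it, on the strand of the gene. Capitals mark matches to the kB motif, and in Tnfaip3 also the AP-1 motif TGACTCA.
Nfkb2 promoter, chr19:46304487-46304786, plus strand: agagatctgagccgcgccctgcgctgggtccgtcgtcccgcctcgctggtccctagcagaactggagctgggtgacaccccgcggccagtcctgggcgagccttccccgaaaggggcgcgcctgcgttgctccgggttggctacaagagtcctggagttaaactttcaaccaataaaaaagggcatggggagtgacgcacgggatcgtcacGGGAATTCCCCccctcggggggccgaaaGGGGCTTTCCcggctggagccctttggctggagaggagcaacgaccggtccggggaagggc
Rel promoter, chr11:23770920-23771219, minus strand: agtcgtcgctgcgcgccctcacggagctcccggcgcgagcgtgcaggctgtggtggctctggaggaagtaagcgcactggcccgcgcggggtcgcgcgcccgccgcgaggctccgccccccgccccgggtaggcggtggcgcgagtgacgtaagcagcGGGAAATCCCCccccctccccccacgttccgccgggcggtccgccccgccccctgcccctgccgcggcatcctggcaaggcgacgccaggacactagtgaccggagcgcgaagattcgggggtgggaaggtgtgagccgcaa
Nfkbia promoter, chr12:55492598-55492897, minus strand: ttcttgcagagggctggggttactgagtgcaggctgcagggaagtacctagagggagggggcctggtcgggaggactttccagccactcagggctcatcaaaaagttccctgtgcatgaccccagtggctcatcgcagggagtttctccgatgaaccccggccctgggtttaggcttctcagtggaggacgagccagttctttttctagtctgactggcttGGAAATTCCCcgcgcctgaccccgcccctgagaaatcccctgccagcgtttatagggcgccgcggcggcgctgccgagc
Tnfaip3 promoter, chr10:19015361-19015660, minus strand: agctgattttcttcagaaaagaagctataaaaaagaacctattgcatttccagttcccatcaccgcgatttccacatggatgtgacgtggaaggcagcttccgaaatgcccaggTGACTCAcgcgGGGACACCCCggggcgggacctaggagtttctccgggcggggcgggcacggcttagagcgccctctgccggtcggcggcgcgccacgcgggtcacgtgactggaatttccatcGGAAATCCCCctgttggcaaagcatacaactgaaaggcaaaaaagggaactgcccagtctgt
Tnip1 promoter, chr11:54962891-54963190, minus strand: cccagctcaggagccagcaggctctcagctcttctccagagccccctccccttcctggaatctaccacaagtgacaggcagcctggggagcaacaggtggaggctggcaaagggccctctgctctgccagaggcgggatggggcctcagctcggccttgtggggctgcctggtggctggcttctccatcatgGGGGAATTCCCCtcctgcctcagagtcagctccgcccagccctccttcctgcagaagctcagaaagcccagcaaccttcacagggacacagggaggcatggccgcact

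Of the 10 RefSeq promoter sequences that matched 7 of the members, 7 held the kB motif on either strand, against 1480 of all 32851 promoter sequences (4.51%). The AP-1 motif was found in 1 of the 10, against 5.20% of all. In Nfkbia the kB match began 29 bases before the start. In Rel 2 overlapping matches began 92 and 91 bases before it. In Nfkb2, matches began 39, 38 and 11 bases before the first start. At the second start they began 236 bases before it and 10 bases after it. The only match of the third start, 225 bases before it, is that last site again. The 7 sequences thus include 2 overlapping ones of Nfkb2 that share a site. The Tnip1 matches, at 58, 57 and 56 bases, are 1 palindromic run read at 3 offsets. In Tnfaip3 the kB matches began 125 and 12 bases before the start, the farther of them close to the AP-1 motif, which began 136 bases before it. No match was found in the Rela or Birc3 sequences, and Nfkb1, Relb and Nfkbiz were not in the table.

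Of the 9 open regions outside promoters with a kB motif at the summit, 6 windows are shown. They are the 3 that also hold AP-1, the 2 with the most fragments among those without AP-1, a choice made after their values were seen, and the only region of the 10 genes called in both libraries of 1 genotype alone. Each is the 201 bases centred on the strongest summit, on the plus strand of mm10, with kB and AP-1 matches in capitals. In the first 3, kB and AP-1 lay in the same window, as in 3 of the 101 regions (2.97%, against 0.699% of all regions).
Tnip1 intron, chr11:54958509-54958709: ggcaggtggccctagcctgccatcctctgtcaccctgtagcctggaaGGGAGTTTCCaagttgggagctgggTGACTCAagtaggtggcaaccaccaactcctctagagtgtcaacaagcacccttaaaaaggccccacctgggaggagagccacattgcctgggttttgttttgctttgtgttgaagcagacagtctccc
Upstream of Rel, chr11:23786491-23786691: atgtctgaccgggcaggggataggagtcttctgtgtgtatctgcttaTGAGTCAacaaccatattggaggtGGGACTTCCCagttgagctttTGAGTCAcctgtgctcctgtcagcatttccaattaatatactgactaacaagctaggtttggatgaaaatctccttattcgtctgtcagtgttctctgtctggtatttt
Psd intron near Nfkb2, chr19:46314955-46315155: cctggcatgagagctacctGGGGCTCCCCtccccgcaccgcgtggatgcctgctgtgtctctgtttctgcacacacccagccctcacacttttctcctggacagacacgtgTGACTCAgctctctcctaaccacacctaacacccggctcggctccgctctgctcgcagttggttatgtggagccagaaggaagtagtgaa
Rel intron, chr11:23754342-23754542: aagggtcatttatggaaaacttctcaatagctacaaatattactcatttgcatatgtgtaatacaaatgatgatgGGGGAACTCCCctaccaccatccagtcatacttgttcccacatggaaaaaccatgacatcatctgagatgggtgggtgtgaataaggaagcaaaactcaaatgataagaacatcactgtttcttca
Upstream of Nfkbia, chr12:55495233-55495433: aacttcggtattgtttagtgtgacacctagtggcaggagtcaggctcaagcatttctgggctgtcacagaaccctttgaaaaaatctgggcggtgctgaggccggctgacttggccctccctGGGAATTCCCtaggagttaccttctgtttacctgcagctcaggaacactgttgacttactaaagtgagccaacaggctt
Past the end of Rela, chr19:5648829-5649029: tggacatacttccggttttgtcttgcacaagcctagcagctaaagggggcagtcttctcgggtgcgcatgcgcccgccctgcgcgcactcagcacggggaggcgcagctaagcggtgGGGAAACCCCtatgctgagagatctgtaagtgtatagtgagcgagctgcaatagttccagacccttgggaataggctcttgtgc

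In the window upstream of Rel, the kB match lay between 2 AP-1 matches with 11 bases to the nearer one. In the Tnip1 intron the 2 motifs were 15 bases apart, and in the Psd intron 82 bases apart.

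The kB motif lay within 100 bp of the summit in 18 of the 101 regions (17.8%, Wilson 95% interval 11.6 to 26.4%), against 3.51% of all 82641 regions. The genes were listed partly because they are known NF-kB targets, so this share is a description. The members' own promoters and the regions outside promoters held 9 of the 18 each. Of the 15 regions within 2 kb of a start of the member itself, 9 held the motif (60.0%, 35.7 to 80.2%), while 3.78% of all promoter regions did. Outside promoters it was found in 9 of 80 regions (11.2%, 6.03 to 20.02%), against 3.41%. The AP-1 motif, bound by dimers of Jun and Fos proteins, had another distribution. It lay in 23 of the 101 regions (22.8%, 15.7 to 31.9%), close to the 23.7% of all regions. All 23 were outside promoters, where the share was 28.8% against 28.0% of all such regions. None of the 21 promoter regions in these windows held AP-1 at the summit, a share whose interval reached 15.5%, while 12.0% of all promoter regions did. These intervals cover counting error only.

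**Figure D1:**
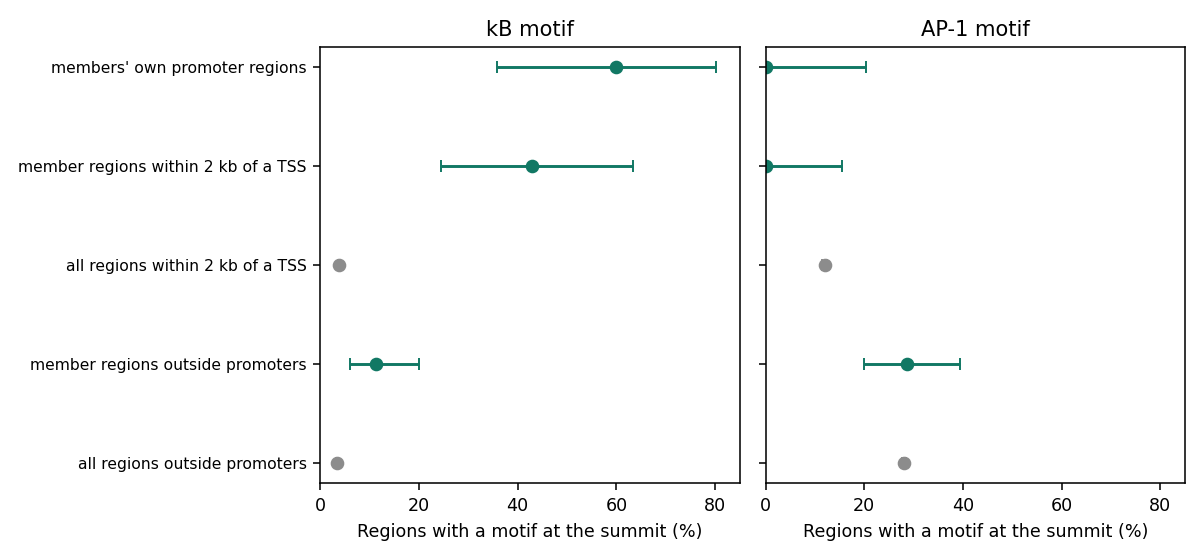
Share of regions (%, horizontal axis) with a kB motif (left) or an AP-1 motif (right) within 100 bp of the summit. Green points are regions of the 10 genes with Wilson 95% intervals and grey points are all regions of the same kind. The members' own promoter regions reached 60.0% for kB and 0 of 15 for AP-1.

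The lists of WT 1 and WT 2 held 69927 and 54856 peaks, and those of Mapk8-KO 1 and Mapk8-KO 2 held 69583 and 49856. WT 2 had 0.694 times the fragment depth of WT 1, Mapk8-KO 1 had 1.10 times and Mapk8-KO 2 had 0.612 times, so the second library of each genotype was the shallower one. Promoters of the keratinocyte markers Krt5, Krt14, Itga6, Epcam, Trp63 and Col17a1 were called in 6, 5, 6 and 4 of 6 genes. Of 8 leukocyte and Langerhans cell markers, 7 were in no list (Ptprc, Cd207, Cd3e, Cd3g, Csf1r, Itgax and Cd74), and H2-Ab1 was called in all 4. Promoters were also called for 3 of 4 melanocyte markers (not Tyr), 2 of 4 fibroblast markers (not Col1a2 or Dcn) and 2 to 3 of 4 endothelial markers (not Cdh5). The summed marker levels ranged from 17.3 to 20 depth-scaled fragments in WT and 24.5 to 31.0 in Mapk8-KO for leukocytes, and from 138 to 141 and 153 to 196 for melanocytes. They were 63.0 to 69.2 and 73.5 to 74.4 for fibroblasts, and 106 to 128 and 99.6 to 126 for endothelium. Their part in the results was not tested. The Mapk8 promoter was called in every library, at 96.0, 105, 98.9 and 147 depth-scaled fragments, which is no check of the deletion. The Krt14 promoter stood at 38 and 24.5 in WT and at 181 and 178 in Mapk8-KO, and the cause was not tested.

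The 10 genes differed in how many open regions surrounded them. The 101 regions lay in 805 kb of windows, or 12.5 per 100 kb, with 22 at Nfkb1, 14 at Nfkbia, 13 at both Rel and Nfkbiz, 9 at Tnip1, 8 at both Relb and Birc3, 7 at Tnfaip3, 4 at Nfkb2 and 3 at Rela. The median protein-coding gene had 4 regions in a window of the same flanks, and 98.8% of coding genes had fewer than Nfkb1, whose window is also the longest. For Nfkbia, a short gene, 95.6% had fewer, and for Nfkb2 and Rela 44.4% and 33.6%. Per window length, the median coding gene had 4.96 regions per 100 kb. Nfkbia was the densest of the 10 with 26.3, more than 99.9% of coding genes, and Rela the sparsest with 4.95, more than 49.9%. Of the 101 regions, 61 had a start of 1 of the 10 genes as the nearest one, and the other 40 lay closer to another gene.

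**Figure D2:**
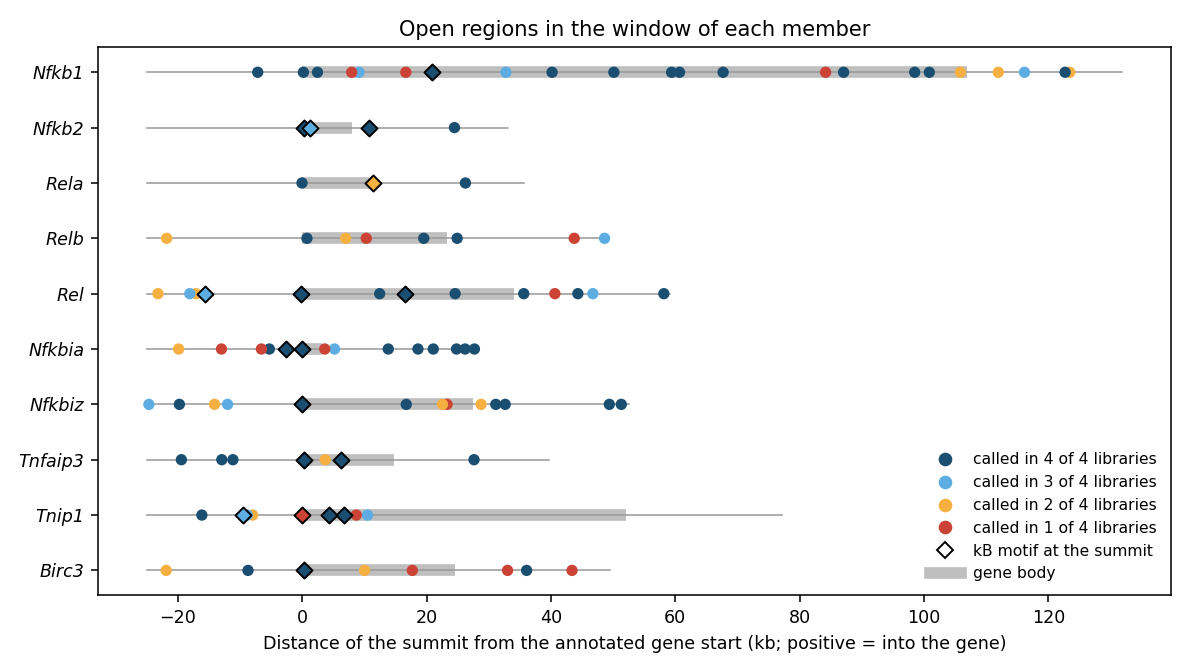
Each row is the window of 1 gene, with the distance of each region's summit from the annotated gene start in kb (horizontal axis) and the gene body as a thick grey bar. Point colour gives the number of libraries that called the region and black-edged diamonds mark a kB motif at the summit. In 9 of the 10 genes a region called in 4 of 4 libraries sits at the gene start, and at Tnip1 that region lies inside the gene.

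Most of the open regions were shared by the genotypes. Of the 101, 56 were called in all 4 libraries (55.4%), against 48.6% of all regions, and 14, 16 and 15 were called in 3, 2 and 1. The next most common pattern joined the first library of each genotype, and its cause was not tested. In 11 regions (10.9%, against 7.91% of all regions) the call was made in WT 1 and Mapk8-KO 1, the deeper libraries, and in neither of the others. A further 8 (7.92%, against 9.91%) were called in all but Mapk8-KO 2. Singly called regions were found in WT 1 (9, or 8.91% against 9.08% of all regions) and Mapk8-KO 1 (6, or 5.94% against 8.47%). None was found in WT 2 or Mapk8-KO 2, where 2.19% and 1.97% of all regions were called singly. A region that is not called may still be open below the threshold of that list.

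**Figure D3:**
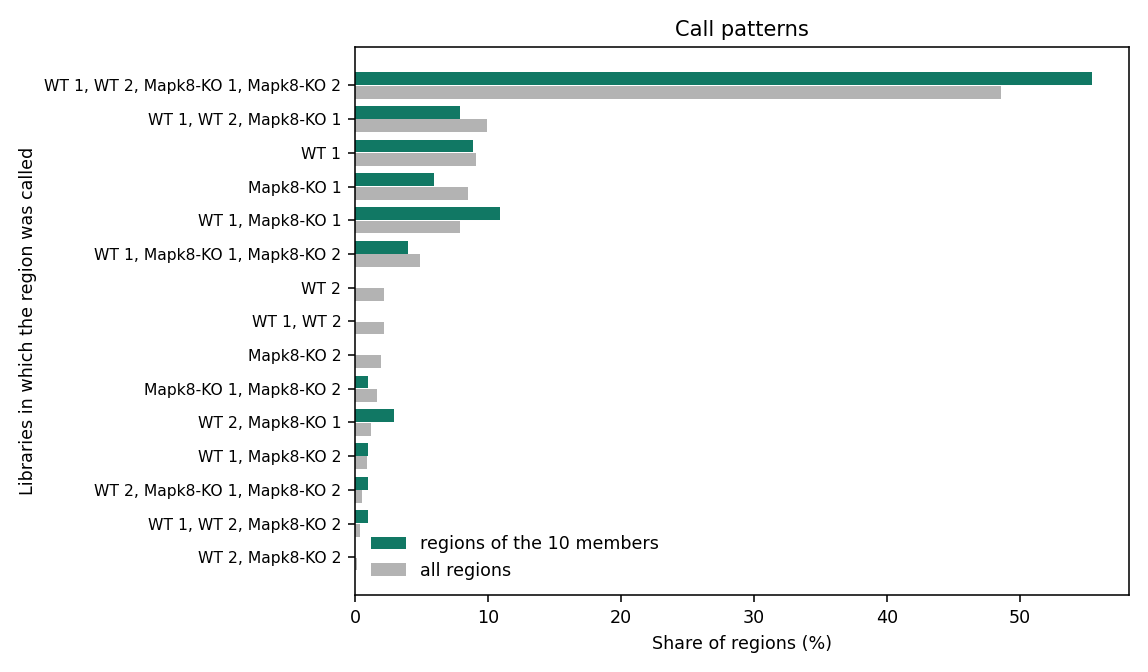
Share of regions (%, horizontal axis) by the set of libraries that called them (vertical axis), for the 101 regions of the 10 genes in green and all 82641 regions in grey. The bar for all 4 libraries is the longest for both, at 55.4% and 48.6%, and the pair WT 1 with WT 2 is empty for the 10 genes.

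No region of the 10 genes was called in both WT libraries and in neither Mapk8-KO library, a pattern found in 2.17% of all regions. The reverse pattern was found in 1 (0.990%, against 1.65% of all regions). That region, chr19:5648858-5649216, lies just past the end of Rela, 11446 bp from its start. The kB motif is printed above in its window. Its summit held 15 fragments in Mapk8-KO 1 and 8 in Mapk8-KO 2, or 13.6 and 13.1 after scaling, and it stood low in both lists, at the 17.1 and 1.5 percentiles of fold enrichment. With a stricter q value in every list it was not called. Leaving out 1 library asks for fewer lists. The WT pattern then counted 9 regions without WT 2 (8.91%, against 11.5% of all regions in that setting) and 8 without Mapk8-KO 1 (8.42%, against 13.2%). It counted 1 without Mapk8-KO 2 (0.980%, against 2.61%) and 0 without WT 1 (against 4.84%). The Mapk8-KO pattern counted 5 without WT 1 (5.38%, against 7.14%) and 7 without Mapk8-KO 2 (6.86%, against 10.3%). It counted 2 without WT 2 (1.98%, against 2.26%) and 2 without Mapk8-KO 1 (2.11%, against 4.03%).

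Signal at each region is given as the fragments piled up at the summit, divided by the depth of its library relative to WT 1. For the 56 regions called in all 4 libraries, log2 pileup was fitted with limma together with all 40159 such regions, each library centred at its median. No region of the 10 genes passed an adjusted p of 0.05 in limma. Of all regions, 0.496% passed with a higher level in WT and 0.11% with a higher level in Mapk8-KO, 243 in all. With median-of-ratios centring these shares were 0.214% and 0.0199%, 94 regions in all, and again no region of the 10 genes passed. Higher levels in WT made up 81.9% of the calls with the first centring and 91.5% with the second. At an unadjusted p under 0.05 there were 6 of the 56 (10.7%), against 11.3% of all regions. The median log2 difference, Mapk8-KO minus WT, was 0.04 over the 56 and 0.05 over all regions. It was −0.00386 over the 56 with median-of-ratios centring, so no direction is given for the group. Single differences ran from −0.61 to 0.69 on the log2 scale, 29 above 0 (51.8%, against 57.4% of all) and 27 below. With 2 libraries in each group, an exact permutation test of a single value cannot reach 0.05.

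All 10 genes had an open promoter in every library, counting regions within 2 kb of an annotated start. For each gene the promoter region with the highest mean percentile is used, which for Tnip1 lies at a downstream start. The levels spanned from 24.5 to 127 depth-scaled fragments. The highest were Nfkbia, Birc3 and Rel and the lowest Rela, Nfkbiz and Nfkb1, and the libraries of neighbours in this order overlapped. Nfkbiz has a stronger downstream promoter, described further on, with which it would stand beside Birc3 and Rel. At 8 of the 10, Mapk8-KO 2 was the highest of the 4 libraries. Over all 14530 promoter regions called in every library, this library was highest at 55.6%. With the downstream promoter of Nfkbiz, an alternative chosen after seeing the data, it was highest at 7 of the 10. Against the mean of the WT libraries, the median log2 difference of the 10 promoters was 0.08 in Mapk8-KO 1 and 0.40 in Mapk8-KO 2, and over all promoter regions it was 0.06 and 0.23. The shift thus stood mainly in Mapk8-KO 2, the shallowest library, and the part of depth in it was not tested. The group difference was above 0 at 8 of 10 promoters, with a median of 0.23, against 72.6% and a median of 0.14 over all promoter regions. The count stayed at 8 with median-of-ratios centring, quantile normalization and fold enrichment, with medians of 0.18, 0.18 and 0.14. Outside promoters the other 40 regions had a median of −0.10 against −0.01 for all such regions, with 15 above 0 (37.5%, against 48.8%). On fold enrichment the median of these 40 was 0.003, so their direction depended on the scale.

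**Figure D4:**
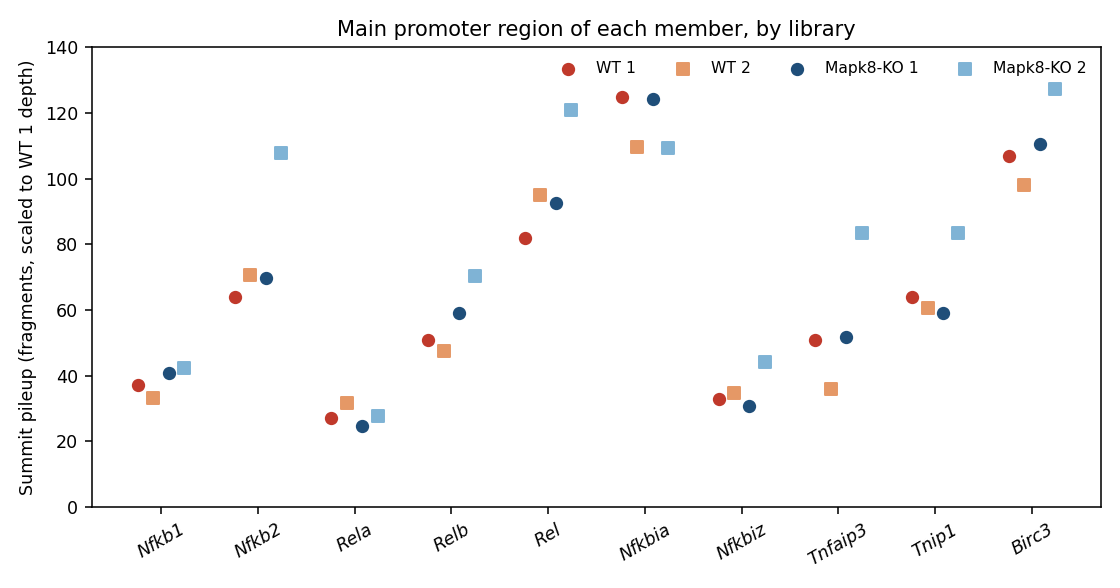
Summit pileup in fragments, scaled to the depth of WT 1 (vertical axis), at the main promoter region of each gene (horizontal axis), 1 point per library. Red and orange are WT 1 and WT 2, dark and light blue are Mapk8-KO 1 and 2. The light blue square is the highest point at 8 of the 10 genes, and at Nfkbia the libraries of the 2 genotypes interleave.

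Among the subunits, Nfkb2 encodes p100, the precursor of p52 in the non-canonical pathway. Its promoter region, chr19:46304162-46305177, held 64.0 and 70.6 depth-scaled fragments in WT and 69.9 and 107.8 in Mapk8-KO. The groups overlapped, since Mapk8-KO 1 lay between the WT libraries, and the log2 difference was 0.37 ± 0.20 (SE, adjusted p = 0.491 in limma). A second Nfkb2 promoter region, chr19:46305393-46305927, also with a kB motif, was called in all but Mapk8-KO 2, at 27.0, 25.9 and 25.4. The Psd intron region downstream, printed above with both motifs, stood at 48.0 and 37.5 in WT and 36.3 and 42.5 in Mapk8-KO.

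Relb, the transactivating partner of p52, had its promoter at chr7:19628450-19629604. It held 51.0 and 47.6 in WT and 59.0 and 70.2 in Mapk8-KO, so both Mapk8-KO libraries were above both WT libraries. The difference of 0.39 ± 0.23 did not pass (adjusted p = 0.527 in limma). The remaining regions nearest to Relb were weak introns, of which the strongest by rank, chr7:19622367-19622602, was called only in the deeper libraries, at 19.0 in WT 1 and 16.3 in Mapk8-KO 1. None of the 8 regions of Relb held either motif.

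Rel encodes c-Rel, a subunit best known from lymphocytes. Its window was open at 13 regions in these cells, 7 of them in all 4 libraries. The promoter, chr11:23770508-23771759, held 82.0 and 95.1 in WT and 92.6 and 120.9 in Mapk8-KO, overlapping groups with a difference of 0.26 ± 0.19 (adjusted p = 0.632 in limma). An intronic region with a kB motif, chr11:23754073-23754806, was about as strong, at 75.0 and 92.2 in WT and 89.8 and 80.0 in Mapk8-KO. It differed by 0.03 ± 0.19, within the spread between replicates. Another intronic region, chr11:23746035-23747070, with AP-1, held 89.0, 99.4, 103.4 and 93.1 in the order WT 1, WT 2, Mapk8-KO 1, Mapk8-KO 2. Upstream, the region with 2 AP-1 motifs and a kB motif, chr11:23786423-23786711, was called at 49.0 in WT 1, 40.4 in WT 2 and 41.7 in Mapk8-KO 1 and was not called in Mapk8-KO 2. Of its 3 neighbours, which lie up to 23223 bp upstream of the gene, none was called in Mapk8-KO 2 either. Only 59.1% of all regions were called in that library, the shallowest. The neighbour chr11:23787991-23788215 was also not called in WT 1, and chr11:23794105-23794441 not in WT 2.

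Nfkb1, the source of p50, had the most regions and a weak promoter. The promoter, chr3:135690824-135691879, held 37.0 and 33.1 in WT and 40.8 and 42.5 in Mapk8-KO, without overlap, and differed by 0.25 ± 0.27 (adjusted p = 0.775 in limma). Some of its introns were more accessible than its promoter. The intronic region chr3:135631748-135632579 held 88.0, 80.7, 88.0 and 80.0 in the order WT 1, WT 2, Mapk8-KO 1, Mapk8-KO 2, a log2 difference of −0.01 ± 0.19. Of the 13 regions at Nfkb1 called in all 4 libraries, 1 held a kB motif, chr3:135670505-135671252 in an intron, at 77.0, 56.2, 74.4 and 50.6. There the values followed the replicate number and not the genotype.

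Rela encodes p65, the main transactivating subunit. Its promoter, chr19:5637045-5637958, was the weakest of the 10, at 27.0 and 31.7 in WT and 24.5 and 27.8 in Mapk8-KO. These groups overlapped and differed by −0.17 ± 0.30 (adjusted p = 0.884 in limma). By rank it was 1 of the regions that stood higher in WT, as described next.

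A second measure compared each region's fold enrichment by its percentile among the 40159 shared regions of each list. A region was counted when its lowest percentile in 1 genotype was at least 10 points above its highest in the other. Of the 56 regions, 3 stood higher in WT (5.36%, against 4.65% of all shared regions) and 3 stood higher in Mapk8-KO (5.36%, against 4.07%). Both shares are near those of all regions. Without WT 1 the counts towards WT and towards Mapk8-KO were 8 and 8 (14.0% each, against 11.8% and 12.1% of all shared regions in that setting). Without Mapk8-KO 1 they were 7 and 12 (12.3% and 21.1%, against 15.3% and 16%). Without WT 2 they were 4 and 8 (6.67% and 13.3%, against 11% and 11.5%), and without Mapk8-KO 2 they were 4 and 6 (6.15% and 9.23%, against 10% and 10%).

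**Figure D5:**
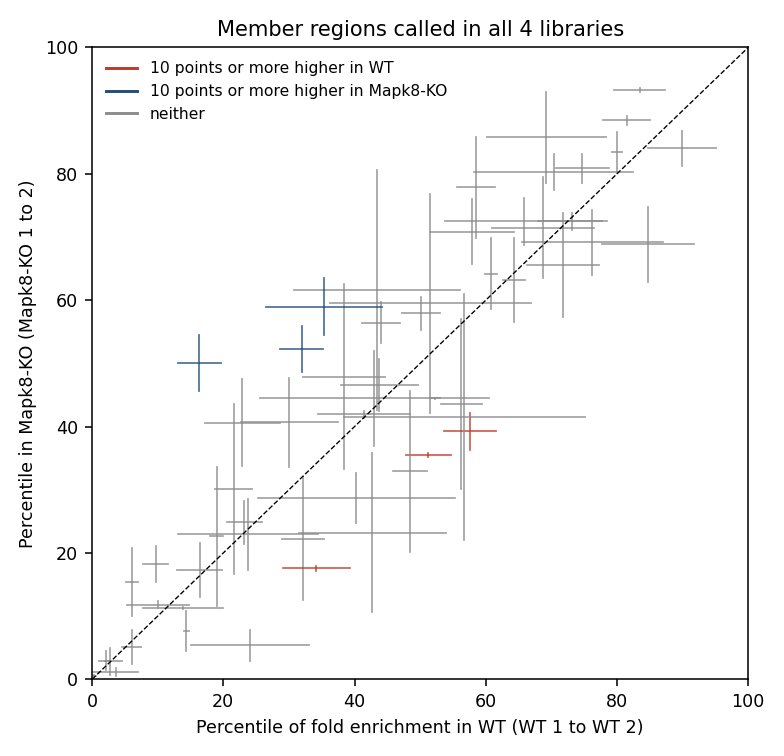
Percentile of fold enrichment in WT (horizontal axis) against Mapk8-KO (vertical axis) for the 56 regions called in all 4 libraries. Each cross spans the 2 libraries of a genotype, and the dashed line marks equal percentiles. The 3 red and 3 blue crosses are the regions with a gap of at least 10 points. The grey crosses are the others, some of which also lie off the line.

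The widest gap was at a neighbour of Rela. The promoter of Sipa1, a regulator of Rap GTPases, lies in the Rela window at chr19:5663288-5663831. Its percentiles were 19.6 and 13.1 in WT and 54.5 and 45.7 in Mapk8-KO, a gap of 26.0 points (22.9 by −log10 p). In fragments it held 19.0 and 18.7 in WT and 29.9 and 31.0 in Mapk8-KO, so the groups did not overlap. The log2 difference of 0.69 ± 0.31 was the highest of the 56 and did not pass over all regions (adjusted p = 0.364 in limma). The Rela promoter itself went the other way by rank, at 47.8 and 54.6 in WT and 35.8 and 35.2 in Mapk8-KO, a gap of 12.0 points that shrank to 2.37 when regions were ranked by −log10 p.

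At Nfkbia, a region 5306 bp upstream of the gene start stood higher in Mapk8-KO. It lies in an exon of the non-coding gene Gm36634, chr12:55497776-55498335. Its percentiles were 35.3 and 28.6 in WT and 55.9 and 48.7 in Mapk8-KO, a gap of 13.4 points that shrank to 8.80 by −log10 p. Its fragments were 77.0 and 60.5 against 97.1 and 91.5, without overlap. The difference was 0.47 ± 0.20 (adjusted p = 0.323 in limma). The Nfkbia promoter, chr12:55491715-55492887, was the most accessible of the 10 in WT and showed no such gap, with 125.0 and 109.5 in WT and 124.3 and 109.4 in Mapk8-KO. Its log2 difference was −0.0046 ± 0.18. The kB region 2686 bp upstream, chr12:55495196-55495456, held 69.0, 70.6, 64.4 and 84.9, again with overlapping groups. The region chr12:55473682-55474402, past the end of the gene and with AP-1, held 66.0, 72.1, 66.2 and 52.3.

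The Nfkbia window also shows what fold enrichment leaves out. By fold, the Nfkbia promoter lay at only the 13.1, 34.4, 28.6 and 17.3 percentiles, and by fragments at the 94.4, 90.8, 93.2 and 89.2 percentiles. The local background there was 21, 9.5, 17.9 and 11 fragments. The 9 shared regions of the window had median backgrounds of 14.2, 9.03, 17.0 and 7.95 fragments, against 4.36, 2.88, 4.76 and 2.68 over all shared regions, and median fold percentiles of 13.1, 14.0, 10.9 and 4.91. Their median fragment percentiles were 69.3, 64.1, 68.8 and 59.2. Fold divides by that background, so regions where it is high rank lower by fold than by fragments. A region there can go uncalled at a level that is called elsewhere. Why the background was high was not tested. The region chr12:55488627-55489316, just past the end of the gene, held 64.0 fragments in WT 1 over a background of 20.1. It stood at the 1.15 percentile of fold in that list. No other list called it, so its level there is not known.

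Nfkbiz encodes IkB-zeta, a nuclear member of the inhibitor family that acts as a cofactor of NF-kB and is known for its role in keratinocyte responses to interleukin-17. It had 2 open promoters. The upstream one, chr16:55838619-55839439, held 33 and 34.6 in WT and 30.9 and 44.1 in Mapk8-KO, with a kB motif at the summit and a difference of 0.13 ± 0.28 (adjusted p = 0.908 in limma). The downstream one, chr16:55821692-55822728, was stronger in every library, at 99 and 100.9 in WT and 116.1 and 114.3 in Mapk8-KO. These groups did not overlap, and the difference was 0.21 ± 0.18. Both Mapk8-KO libraries stood above both WT libraries at 14 of the 56, and at 24.6% of all shared regions. At Nfkbiz, 2 regions described here had higher values in both WT libraries, a separation seen at 11 of the 56 (19.6%, against 17% of all shared regions). In an intron of the neighbouring gene Nxpe3, chr16:55858388-55858902, percentiles were 61.6 and 53.7 in WT and 42.2 and 36.3 in Mapk8-KO. The gap was 11.5 points (14.0 by −log10 p), with 36.0 and 34.6 fragments against 26.3 and 29.4. Past the 3' end of the gene, chr16:55806060-55806522 held 54.0 and 59.1 in WT and 39.9 and 34.3 in Mapk8-KO, also without overlap. Its difference of −0.61 ± 0.25 was the lowest of the 56 (unadjusted p = 0.014, adjusted p = 0.293 in limma), and its rank gap of 7.26 points fell just short. The next region along, chr16:55807521-55807960, overlapped between genotypes by a narrow margin, with 92.0 and 72.1 in WT and 56.3 and 73.5 in Mapk8-KO.

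Tnfaip3 encodes A20, which removes and adds ubiquitin chains to shut down signaling upstream of NF-kB. Its promoter, chr10:19014601-19015624, held 51.0 and 36.0 in WT and 51.7 and 83.3 in Mapk8-KO. Mapk8-KO 1 was level with WT 1 and Mapk8-KO 2 was far above both, so most of the difference of 0.61 ± 0.23 came from Mapk8-KO 2 (unadjusted p = 0.009, adjusted p = 0.246 in limma). Without Mapk8-KO 1 the difference was 0.94. That fit leaves 1 Mapk8-KO library, so its test is not used. A region 11166 bp upstream, chr10:19026584-19027121, went the other way in the same library. It held 43.0 and 59.1 in WT and 46.3 and 26.1 in Mapk8-KO, a difference of −0.54 ± 0.26 (adjusted p = 0.419 in limma) that became −0.97 without Mapk8-KO 1. The Tnfaip3 region outside promoters with the highest mean percentile, chr10:18987495-18988560, lies past the end of the gene and moved with neither. It held 65.0 and 63.4 in WT and 59.0 and 68.6 in Mapk8-KO and lay between the 81.3 and 95.1 percentiles in every library.

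Tnip1 encodes ABIN-1, a ubiquitin-binding partner of A20. The annotated gene start with the palindromic kB run was barely open. Its region, chr11:54962852-54963024, was called only in Mapk8-KO 1, at 20 depth-scaled fragments. The open promoter lay 6772 bp into the gene at a downstream start, chr11:54955796-54956347, which held 64.0 and 60.5 in WT and 59.0 and 83.3 in Mapk8-KO and had a kB motif of its own. It differed by 0.17 ± 0.21 (adjusted p = 0.811 in limma). Between the 2 starts lay the intronic region with AP-1 and kB, chr11:54958502-54958872, the only region past the rank gap that held either motif. Its percentiles were 39.2 and 29.0 in WT and 18.0 and 17.1 in Mapk8-KO, a gap of 11.02 points (8.21 by −log10 p). Its fragments were 78.0 and 62.0 against 58.1 and 60.4. The groups did not overlap but were narrowly separated in fragments, and the log2 difference was −0.23 ± 0.21 (adjusted p = 0.731 in limma). Upstream, chr11:54978891-54979209 stood higher in Mapk8-KO, with percentiles of 44.2 and 26.5 against 54.5 and 63.4 and fragments of 26.0 and 23.1 against 29.9 and 37.6. Its gap of 10.3 points (9.02 by −log10 p) was the narrowest counted.

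Birc3 encodes cIAP2, a ubiquitin ligase recruited to tumor necrosis factor receptors. Its promoter, chr9:7872498-7873256, was among the strongest, at 107.0 and 98.0 in WT and 110.7 and 127.4 in Mapk8-KO, with a kB motif at the summit. The groups did not overlap, and the difference was 0.21 ± 0.18 (adjusted p = 0.702 in limma). An upstream region, chr9:7881628-7882286, held 40.0 and 36.0 in WT and 46.3 and 47.4 in Mapk8-KO, and with a gap of 8.33 points was the nearest to the rank threshold from below. The same window contains the promoter of Birc2, which encodes the related ligase cIAP1, at chr9:7836450-7837451. This was the strongest region of the 56, with 141.0 and 139.8 in WT and 217.8 and 196.0 in Mapk8-KO. The groups were well separated and the difference was 0.56 ± 0.17, with the lowest adjusted p of the 56 (0.091 in limma), which did not pass.

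The wider pathway was read from 35 further genes for kinases, other IkB proteins, adaptors, receptors and ubiquitin regulators, with 231 regions in windows of the same flanks that none of the 10 genes shares, 141 of them called in all 4 libraries. Promoters were called in every library for 32 of the 35. They were called in no library for Traf1 and Cd40, which encode an adaptor and a receptor known mainly from leukocytes, and in 3 for Tnfrsf1a. In these windows 3 regions were WT-specific (1.30%, against 2.17% of all regions) and 1 was Mapk8-KO-specific (0.433%, against 1.65%). The WT-specific regions lay upstream of Traf6, at 20 and 24.5 depth-scaled fragments, in an intron of Il17ra, which encodes the interleukin-17 receptor, at 25 and 21.6, and in the window of Map3k14, at 31.0 and 34.6. The first 2 held AP-1. The Mapk8-KO-specific region was the promoter of Spata32 in the Map3k14 window, at 12.7 and 18.0.

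By rank, 3 of the 141 pathway regions stood higher in WT (2.13%, against 4.65%) and 9 in Mapk8-KO (6.38%, against 4.07%). By limma, 2 of the 141 passed an adjusted p of 0.05 (1.42%), both with lower values in Mapk8-KO, against 0.496% of all regions in that direction. Neither passed with median-of-ratios centring, although the differences were as large. Irak4 encodes a kinase that carries signals from interleukin-1 and Toll-like receptors. A region in its intron held 76.0 and 70.6 in WT and 48.1 and 31.0 in Mapk8-KO, a difference of −0.92 ± 0.23 (adjusted p = 0.029 in limma). With median-of-ratios centring it was −0.97 (adjusted p = 0.062) and on fold enrichment −0.29 (adjusted p = 0.852). The other, with AP-1, was in an intron of Rcor3 in the window of the adaptor gene Traf5, at 93.0 and 122.5 in WT and 73.5 and 57.2 in Mapk8-KO (−0.72 ± 0.20, adjusted p = 0.048 in limma). With median-of-ratios centring it was −0.77 (adjusted p = 0.084) and on fold enrichment −0.17 (adjusted p = 0.874). In both regions, neither Mapk8-KO library reached the lower WT value. With 1 library left out in turn, the difference in the Irak4 intron ran from −1.26 to −0.57. That in the Rcor3 intron ran from −0.95 to −0.51. Such fits leave 1 library in a group, so their tests are not used. The kB motif was in 7.36% of the 231 regions and AP-1 in 19.0%, against 17.8% and 22.8% at the 10 genes.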

How the data were processed

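ATAC-seq of sorted keratinocytes was represented by 1 peak list for each of 4 libraries (2 WT, 2 Mapk8-KO). The authors aligned reads to mm10 with Bowtie2, dropped those with multiple or poor alignments, and ran MACS2, as their methods state. The MACS2 settings listed there name no control. The peak names state that mitochondrial reads had been removed. No shift for Tn5 insertion is stated. The deposited values were the fold enrichment (a ratio of summit pileup to local background), −log10 p and −log10 q, a score derived from q, and the summit offset in bp. The highest q in any list was 0.0097, which is stricter than the q cutoff given in their methods.

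The 10 genes and all lists were chosen with earlier results of these data known. Regions were annotated with GENCODE vM21 basic, and promoters lay within 2 kb of a start. For each peak the pileup and background were solved together from the authors' fold and −log10 p. The pileup was whole to within 0.05 for 99.996% of peaks or more. The lowest depth was 0.612 of WT 1, which limits weak regions in Mapk8-KO 2. Depth in reads is unknown. Log2 pileup of the 40159 regions called in all 4 libraries was centred at each library's median and fitted with limma 3.58.1 (variance trend, Benjamini-Hochberg adjustment). Scripts were tested on simulated data. Shares have Wilson 95% intervals, for counting error only. The motif search covered 100 bp either side of the strongest summit, and both strands.

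Named regions were each gene's promoter region and its nearest-start region outside promoters with the highest mean percentile, and every region specific to a genotype, past the rank gap or called by limma. The Birc2 promoter, region chr16:55806060-55806522, the neighbours of Rel and the regions shown for their motifs, level or place were chosen after their values were seen. Median-of-ratios centring was added after seeing the data. The study tested read counts in each region, which the peak lists do not give, so that test is not repeated here.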

Additional observations from a re-analysis of the deposited data

How the results depend on the processing

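Of 93 alternative settings tried on the 8 main counts, shares and medians, 57 left the value in its place and 36 moved it. The median log2 difference, which has no test, changed sign under 4. The limma count rose from 0 under 2, the replicate block and the setting without Mapk8-KO 1. For the 6 regions past the rank gap, 39 of 47 alternatives kept the gap and 8 took it under 10 points. The Sipa1 promoter gave no gap with lists of equal length, where 2 regions ranked higher in Mapk8-KO. Regions ranked higher in Mapk8-KO, 3 as reported, were 1 with flanks of 10 kb, 5 with 50 kb, 0 in gene bodies alone, 1 among regions nearest to a member's start, 7 at a gap of 5 points and 1 at 20. Those ranked higher in WT, also 3, were 5 at a gap of 5 points and 0 at 20. The Mapk8-KO-specific region was lost (0) in gene bodies alone and with a q of 1e-05, and 1 WT-specific region appeared when peaks had to cover 50% of a region. The kB share was 29.5% in gene bodies alone, 7.92% within 50 bp of the summit and 11.2% outside promoters, and the AP-1 share was 14.9% within 50 bp. The median log2 difference was −0.0142 with quantile normalization and −0.00386 with median-of-ratios centring. Over all regions limma called 243, 94 with median-of-ratios centring, 29 with quantile normalization, 0 on fold enrichment and 0 without the variance trend. The causes were not tested.

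Same-numbered replicates were not paired by any source, and their deviations correlated at only 0.0392 between genotypes over 40159 regions. With the replicate block, the rank gap was met by 5 regions towards WT and by 8 towards Mapk8-KO. In that setting limma called 1, the Birc2 promoter (adjusted p = 0.030), and 386 of all 40159 regions. Leaving out 1 library in turn gave 0 to 9 WT-specific and 2 to 7 Mapk8-KO-specific regions. It gave 4 to 8 and 6 to 12 past the rank gap towards WT and towards Mapk8-KO, and medians from −0.0178 to 0.0610. Such fits leave 1 library in a group, so their limma counts are not given.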
